A study of Mus musculus with 8 samples.

Results

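Expression of 38 genes of protein folding and of the unfolded protein response (UPR) was examined in regulatory T cells (Tregs) of 2 kinds of bone marrow chimera. The genes were taken by name and split by role into 15 chaperones and folding enzymes of the endoplasmic reticulum (ER), 6 genes of ER-associated degradation, 8 stress sensors and their effectors, and 9 genes of the cytosol and mitochondria, chaperones and the regulator Hsf1. Of these, 36 had a probe set annotated to that 1 symbol, and a gene with several was represented by the brightest, by its mean over the 8 arrays. Hsp90ab1 and Hsf1 had none and were not analysed here. The 36 measured genes stand among 19937 genes in the whole series.

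The IIKO group held 4 arrays of Tregs from CD3ε-/- recipients given marrow of IIKO donors, and the WT group 4 arrays of Tregs from CD3ε-/- recipients given marrow of WT donors. All recipients were lethally irradiated and, lacking this subunit of the T cell receptor (TCR), form no T cells of their own, while radiation-resistant host cells remain. The labels describe the IIKO chimera Tregs as cells without TCR contact to MHC class II in the periphery. They do not name the disrupted gene or say how many mice a sample pools. Mice were C57BL/6, 6 to 8 weeks old. At 28 days after reconstitution their lymph nodes and spleens were sorted for CD4+ TCRβ+ CD25+ cells, enriched on magnetic beads first, and each Affymetrix array took 100 ng of total RNA. Values are log2 expression after RMA, so a difference of 1 is a doubling, and fold changes are taken for 1 gene across arrays. Levels of different genes are set together only to sort genes into bright and dim, as array brightness, which also depends on the probes.

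Proteins that enter the ER fold with the help of chaperones such as the HSP70 protein BiP, disulfide isomerases and the lectins calnexin and calreticulin, and failed products are sent to the cytosol for degradation. When unfolded proteins build up, the membrane sensors IRE1, PERK and ATF6 raise chaperone and degradation genes through the transcription factors XBP1, ATF4 and cleaved ATF6, and PERK also slows translation. In lymphocytes the response is best known from plasma cells, and the heat shock factor HSF1 serves the chaperones of the cytosol. The sensors act by splicing, phosphorylation and cleavage, none of which a probe set level measures.

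The ER stress element (ERSE), to which ATF6 and XBP1 bind together with the factor NF-Y, is shown because it marks the classical UPR targets among these genes. It is CCAAT followed, after 9 bases of any kind, by CCACG, and was searched on both strands in RefSeq promoters (GRCm38.p6, 250 bases before to 50 after a gene's start). It was found in 39 of 32851 promoters (0.119%) and in 8 of the 30 genes, of the 38, with a promoter entry (26.7%), of which Hsp90b1 held 2. The capitals in the lines below mark the bases that the motif fixes, in the direction of the gene.
Hspa5, chr2:34772020-34772048, plus strand: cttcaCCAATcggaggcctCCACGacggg
Hsp90b1, chr10:86705633-86705661, minus strand: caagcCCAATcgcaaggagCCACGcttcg
Hsp90b1, chr10:86705528-86705556, minus strand: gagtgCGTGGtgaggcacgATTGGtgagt
Dnajc3, chr14:118937822-118937850, plus strand: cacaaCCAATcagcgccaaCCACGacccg
Pdia6, chr12:17266486-17266514, plus strand: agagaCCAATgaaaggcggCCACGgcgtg
Canx, chr11:50325795-50325823, minus strand: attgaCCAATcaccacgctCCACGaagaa
Calr, chr8:84847070-84847098, minus strand: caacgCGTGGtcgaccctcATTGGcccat
Creld2, chr15:88819515-88819543, plus strand: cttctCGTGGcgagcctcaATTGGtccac
Syvn1, chr19:6046527-6046555, plus strand: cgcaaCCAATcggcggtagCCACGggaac
The Hspa5 site began 65 bases before the gene's start, and those of the other genes lay between 44 bases (Syvn1) and 212 bases (Hsp90b1) before it.

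A second element, ERSE-II, starts with ATTGG and goes on, after 1 base of any kind, with the CCACG of the ERSE. Searched on both strands, it was found in 0.0365% of promoters, Herpud1 and Dnajb11 among them.
Herpud1, chr8:94386372-94386392, plus strand: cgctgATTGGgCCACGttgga
Dnajb11, chr16:22857847-22857867, plus strand: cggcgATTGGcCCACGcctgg
The heat shock element searched alternates the unit GAA with its reverse complement, TTC, 3 units with 2 bases of any kind between each, on either strand, and was found in 0.603% of promoters. Among the listed genes it was found in the stretch between the mitochondrial chaperonin genes Hspe1 and Hspd1, which point away from each other on chromosome 1. There 2 matches overlap in 18 bases, 89 bases before the start of Hspe1, and the same bases lie in the Hspd1 window.
Hspe1, chr1:55088059-55088076, plus strand: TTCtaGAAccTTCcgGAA
TGACGTGG, a sequence of the UPR element that XBP1 binds, was found in 0.676% of promoters and in 0 of the 30. TGATGNAA, the core of the ATF4 site, was found in 3.97% of promoters, with Herpud1 and Trib3 the 2 listed genes.

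The 250 bases before the start of Hspa5, the standard UPR reporter gene, and of Dnajb9, the gene with the largest difference below, are set out with CCAAT and CCACG of either strand in capitals.
Hspa5, chr2:34771840-34772089, plus strand: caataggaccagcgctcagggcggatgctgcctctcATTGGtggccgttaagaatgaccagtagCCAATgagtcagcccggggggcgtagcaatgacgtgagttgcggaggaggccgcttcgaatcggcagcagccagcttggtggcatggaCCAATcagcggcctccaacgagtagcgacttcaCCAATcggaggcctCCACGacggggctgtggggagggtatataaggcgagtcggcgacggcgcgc
Dnajb9, chr12:44210069-44210318, minus strand: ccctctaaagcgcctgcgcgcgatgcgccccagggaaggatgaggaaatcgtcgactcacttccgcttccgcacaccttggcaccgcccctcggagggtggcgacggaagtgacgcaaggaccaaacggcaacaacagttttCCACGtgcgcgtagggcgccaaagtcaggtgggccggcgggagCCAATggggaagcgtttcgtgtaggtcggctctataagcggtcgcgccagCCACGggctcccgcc
The Hspa5 stretch held 4 CCAAT and 1 CCACG, with 1 pair in ERSE spacing. The Dnajb9 stretch held 1 CCAAT and 2 CCACG, with 0 pairs in that spacing.

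No listed gene rose or fell past the test across all genes. At a limma Benjamini-Hochberg adjusted p under 0.05, 0 of the 36 were called, against 0.286% of all genes (57 of 19937), and the lowest adjusted p was 0.136, for Dnajb9. Without adjustment, 4 genes had a limma p under 0.05 with the higher mean in IIKO chimera Tregs (Dnajb9, Dnajc3, Eif2ak3 and Ppp1r15a), and 0 with the lower mean. These 4 are 11.1% of the 36. By that rule 5.27% of all genes were higher and 12.0% lower (17.3% in all), as were 8.95% and 7.42% of the 9969 brighter genes (16.4% in all). Of the 4985 brightest genes 10.7% were higher, close to the share of the 36. Not all of the 36 lie among these 4985, whose levels start at 8.53, since Eif2ak3, for example, had a mean level of 7.72. The count was 10 without IIKO array 4, 2 without IIKO array 1 or IIKO array 2, and 11 with arrays centred on their medians. Centring raises every difference by the same amount, and the median of all genes went from -0.038 to 0.012. The share of all genes called in these refits was not taken, so the counts cannot be set against it.

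**Figure D1:**
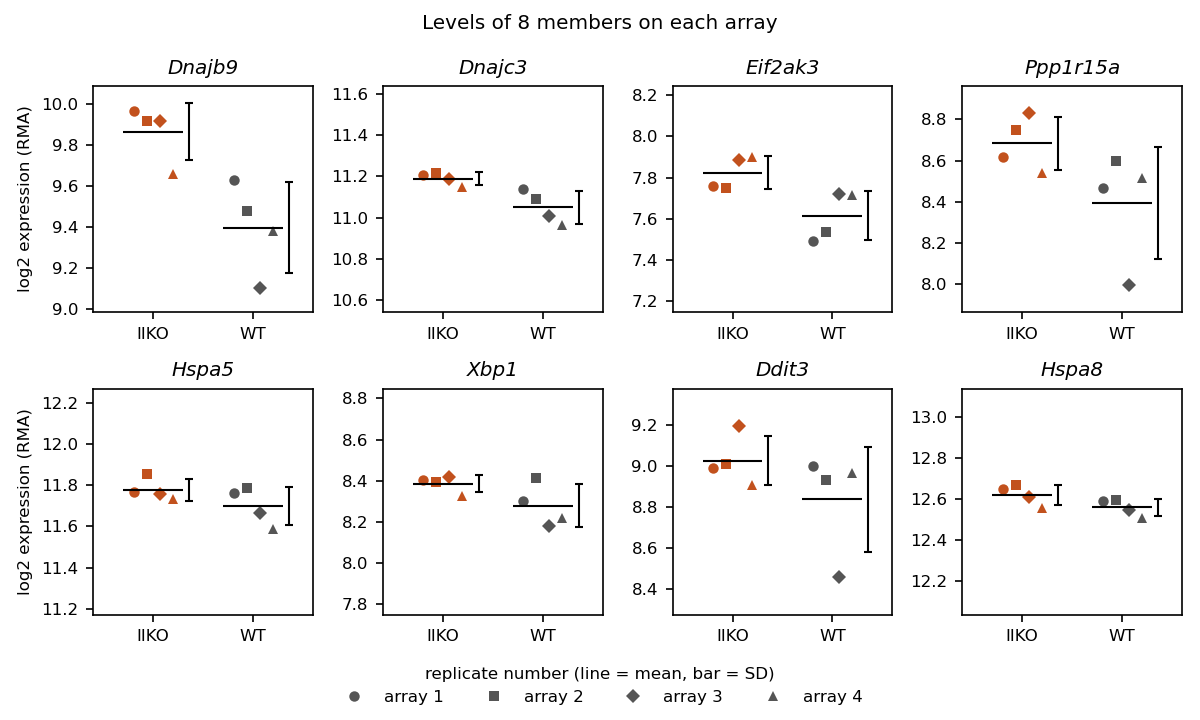
Log2 expression of 8 genes on each array, IIKO chimera Tregs left and WT right, with the mean (line) and SD (bar) of 4 arrays and 1 marker shape per replicate number. The IIKO arrays of Dnajb9, Dnajc3 and Eif2ak3 all lie above the WT arrays, while the groups overlap for the other 5 genes.

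The differences of the 36 ran from -0.11 for Syvn1 to 0.47 for Dnajb9, with a median of 0.075. Their 95% confidence intervals all lay within -0.29 to 0.71. Of the 36, 26 were above 0 (72.2%), against 37.1% of all genes, 53.6% of the 9969 brighter ones and 64.1% of the 4985 brightest. The median was -0.038 over all genes and 0.038 over the 4985 brightest, and 36 of the 36 lay among the 9969 brighter genes, where it was 0.011. With the arrays quantile-normalized again, the median of the 36 was 0.042. In 3 genes every IIKO array lay above every WT array (8.33% of the 36), against 2.83% of all genes, 4.95% of the brighter and 6.56% of the 4985 brightest. In 0 genes every IIKO array lay below, against 7.69% of all genes and 4.49% of the brighter.

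**Figure D2:**
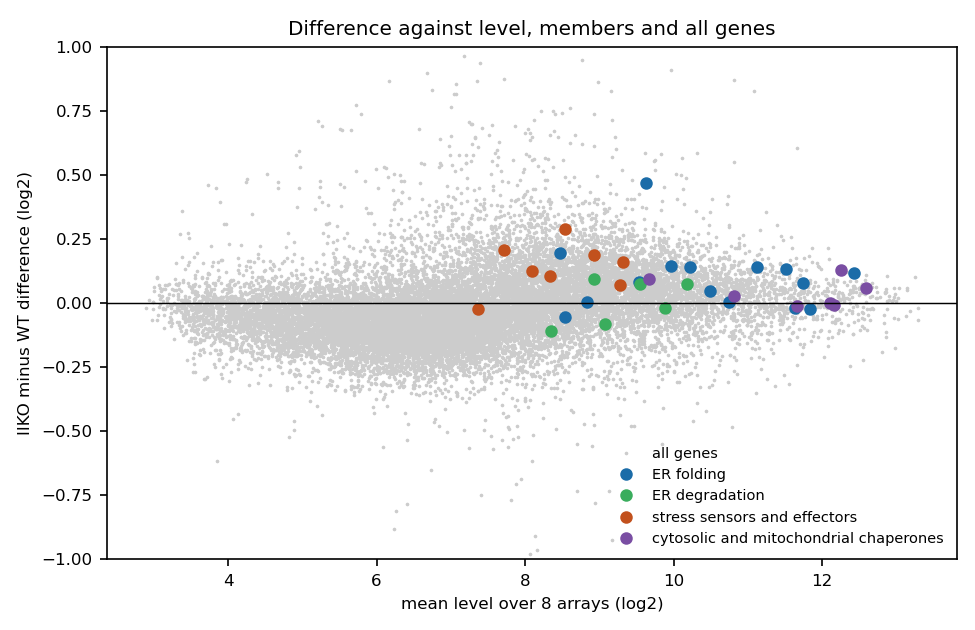
Difference of each gene, IIKO minus WT (log2), against its mean level over 8 arrays (log2), with all genes in grey and the 36 listed genes coloured by role; 25 genes with differences beyond 1 are outside the axis. Dim genes lie mostly below 0, and the 36 lie between levels of 7.37 and 12.59.

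Among the ER chaperones and folding enzymes, 12 of 15 differences were above 0, 0 passed and 2 were higher at an unadjusted p. Dnajb9, the BiP co-chaperone ERdj4 and a known XBP1 target (probe set 10400137), was at 9.97, 9.92, 9.92 and 9.66 on IIKO arrays 1 to 4, against 9.63, 9.48, 9.11 and 9.38 on WT arrays 1 to 4. The lowest IIKO array, array 4, was just above the highest WT array, array 1. The means were 9.86 ± 0.14 in IIKO and 9.40 ± 0.22 in WT chimera Tregs (SD, n = 4 arrays each), a difference of 0.47 ± 0.11 (SE) or 1.38-fold, with a 95% confidence interval of 0.22 to 0.71. Its limma adjusted p was 0.136, and over the alternatives it ran from 0.0895 (without IIKO array 4) to 0.310 (without IIKO array 1).

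Dnajc3, which encodes the co-chaperone p58IPK, a BiP partner (probe set 10417034), was at 11.21, 11.22, 11.19 and 11.15 on IIKO arrays 1 to 4, against 11.14, 11.09, 11.01 and 10.96 on WT arrays 1 to 4. The IIKO arrays lay within 0.07 of each other and above every WT array. The difference was 0.14 ± 0.056 (SE; limma adjusted p = 0.25), and its unadjusted call was lost without WT array 3 or 4 or IIKO array 1, 2 or 3. Hyou1, an HSP110-type nucleotide exchange factor of BiP, was at 8.60, 8.52, 8.71 and 8.45 on IIKO arrays 1 to 4, against 8.46, 8.49, 8.42 and 8.12 on WT arrays 1 to 4. The groups overlapped, since WT arrays 1 and 2 were above IIKO array 4, and WT array 4 was the lowest. Its difference of 0.19 ± 0.091 had an adjusted p of 0.300, and it was 0.11 without WT array 4.

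Hspa5, which encodes BiP, was at 11.77, 11.85, 11.76 and 11.73 on IIKO arrays 1 to 4, against 11.76, 11.79, 11.67 and 11.59 on WT arrays 1 to 4. WT arrays 1 and 2 lay among the IIKO arrays and WT array 4 was lowest. The difference was 0.077 ± 0.061 (SE; limma adjusted p = 0.523), with a confidence interval of -0.059 to 0.21, and it was 0.039 without WT array 4. Hsp90b1, the ER form of HSP90, was at 12.55, 12.53, 12.49 and 12.39 on IIKO arrays 1 to 4, against 12.39, 12.42, 12.38 and 12.31 on WT arrays 1 to 4. IIKO arrays 1 to 3 were above every WT array and IIKO array 4 was not. Its difference was 0.12 ± 0.056 (adjusted p = 0.313).

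The disulfide isomerases had small positive differences, of 0.13 for Pdia3, 0.14 for Pdia4, 0.14 for Pdia6 and 0.082 for P4hb, with limma adjusted p from 0.321 to 0.689. Without WT array 4 Pdia4 was at 0.060 and Pdia6 at 0.070, and without WT array 3 P4hb was at 0.023. A dimmer second probe set of Pdia4 differed by 0.42 ± 0.22 (SE), and the mean of both probe sets by 0.28, which gained an unadjusted call (limma adjusted p = 0.221). The lectin chaperones did not share this sign. Calnexin (Canx) differed by -0.025 and calreticulin (Calr) by -0.018, values that turned to 0.026 and 0.032 with arrays centred on their medians. Of the remaining genes, Manf, an ER protein secreted under stress, differed by 0.047, Creld2, another ER stress-induced gene, by 0.0024, and Dnajb11, the BiP co-chaperone ERdj3, by 0.0029. With the arrays quantile-normalized again, Creld2 turned to -0.049 and Dnajb11 to -0.024. Sdf2l1, which works with Dnajb11, differed by -0.053.

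**Figure D3:**
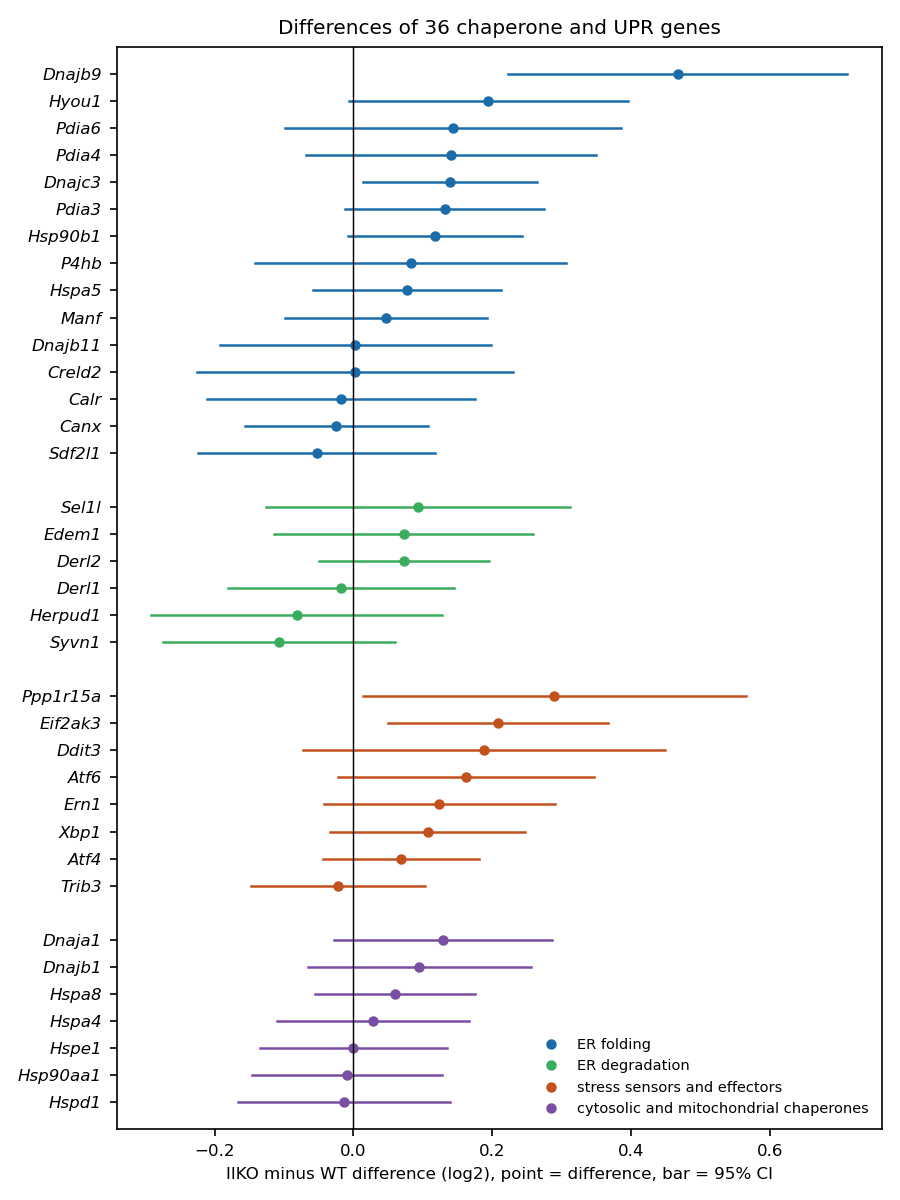
Difference of each of the 36 genes, IIKO minus WT (log2), with its 95% confidence interval from limma, grouped by role and ordered by size within a role. The intervals of Dnajb9, Dnajc3, Eif2ak3 and Ppp1r15a lie above 0, and the other 32 include it.

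The genes of ER-associated degradation had 3 differences above 0 and 3 below, and 0 of 6 were past an unadjusted p under 0.05. Syvn1, the ubiquitin ligase HRD1, was at 8.37, 8.40, 8.11 and 8.31 on IIKO arrays 1 to 4, against 8.48, 8.36, 8.48 and 8.31 on WT arrays 1 to 4. IIKO array 3 was the lowest and the groups overlapped. The difference was -0.11 ± 0.075 (SE; limma adjusted p = 0.470), and -0.045 without IIKO array 3. Sel1l, the adaptor that holds HRD1 in its complex, was at 8.85, 9.05, 8.92 and 9.08 on IIKO arrays 1 to 4, against 8.97, 8.90, 9.07 and 8.60 on WT arrays 1 to 4. WT array 4 was below the rest, and without it the difference of 0.093 was -0.00084. Derl2, a channel component, was at 9.63, 9.65, 9.55 and 9.49 on IIKO arrays 1 to 4, against 9.53, 9.48, 9.54 and 9.50 on WT arrays 1 to 4, and differed by 0.073 ± 0.055 (adjusted p = 0.503).

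The other 3 were Herpud1, an ATF6 and ATF4 target that organizes the ligase complex, at -0.082, the mannosidase-like Edem1 at 0.073 and Derl1 at -0.018, with limma adjusted p from 0.671 to 0.916. The sign of Derl1 turned with arrays centred on their medians (0.033). Syvn1, the ligase, thus had a negative and Sel1l, its partner, a positive difference, neither past the test. The median difference of the 6 was 0.027, and it was -0.018 with the arrays quantile-normalized again, -0.033 without WT array 4 and -0.031 without IIKO array 2.

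Of the stress sensors and their effectors, 7 of 8 had differences above 0, with a median of 0.14, against 0.082 for ER folding, and 0 passed. Without WT array 1 these medians were 0.12 for the sensors and effectors and 0.12 for ER folding. Eif2ak3, which encodes the sensor PERK (probe set 10538939), was at 7.76, 7.75, 7.89 and 7.90 on IIKO arrays 1 to 4, against 7.49, 7.53, 7.72 and 7.71 on WT arrays 1 to 4. Every IIKO array was above every WT array, by 0.03 at the closest. The means were 7.82 ± 0.08 in IIKO and 7.61 ± 0.12 in WT chimera Tregs (SD, n = 4 arrays each), a difference of 0.21 ± 0.071 (SE; limma adjusted p = 0.210), with a confidence interval of 0.050 to 0.37. Atf6, the sensor that is itself a transcription factor, was at 9.38, 9.47, 9.27 and 9.48 on IIKO arrays 1 to 4, against 9.10, 9.15, 9.44 and 9.26 on WT arrays 1 to 4. WT array 3 lay above IIKO arrays 1 and 3, and the difference was 0.16 ± 0.083 (adjusted p = 0.336). Ern1, the sensor IRE1, differed by 0.12 ± 0.075 (adjusted p = 0.404), and by 0.064 without IIKO array 2.

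Xbp1, the factor spliced by IRE1, was at 8.40, 8.39, 8.42 and 8.33 on IIKO arrays 1 to 4, against 8.30, 8.42, 8.18 and 8.22 on WT arrays 1 to 4. WT array 2 was level with the highest IIKO array and the other WT arrays were below all of them. The difference was 0.11 ± 0.063 (SE; limma adjusted p = 0.394). Atf4, whose protein is made when PERK slows translation, was at 9.29, 9.33, 9.34 and 9.28 on IIKO arrays 1 to 4, against 9.23, 9.24, 9.19 and 9.30 on WT arrays 1 to 4. The levels spanned a narrow range, and only WT array 4 lay among the IIKO arrays. It differed by 0.069 ± 0.050 (adjusted p = 0.491), and by 0.020 with the arrays quantile-normalized again.

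Ppp1r15a, or GADD34, the phosphatase subunit that ends the PERK signal (probe set 10563338), was at 8.62, 8.75, 8.83 and 8.54 on IIKO arrays 1 to 4, against 8.47, 8.60, 8.00 and 8.52 on WT arrays 1 to 4. WT array 3 was far below the other arrays, and WT array 2 was above IIKO array 4. The difference of 0.29 ± 0.12 (SE) had a limma adjusted p of 0.270, and it was 0.16 without WT array 3. Its unadjusted call was lost with the replicate block, with the arrays quantile-normalized again and without WT array 1 or 3 or IIKO array 1, 2 or 3. Ddit3, or CHOP, the death-linked factor downstream of ATF4, was at 8.99, 9.01, 9.19 and 8.91 on IIKO arrays 1 to 4, against 9.00, 8.93, 8.46 and 8.96 on WT arrays 1 to 4. WT array 3 was again far the lowest, and the other WT arrays lay among the IIKO arrays. The difference was 0.19 ± 0.12 (adjusted p = 0.418), and 0.062 without WT array 3. Trib3, a pseudokinase induced by ATF4 and CHOP, differed by -0.023, a value that turned to 0.0069 with the arrays quantile-normalized again and to 0.028 with arrays centred.

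The cytosolic and mitochondrial chaperones had differences from -0.013 to 0.13, 4 of 7 above 0 and 0 past an unadjusted p under 0.05. Dnaja1, an HSP40 co-chaperone, was at 12.32, 12.29, 12.48 and 12.18 on IIKO arrays 1 to 4, against 12.22, 12.18, 12.10 and 12.25 on WT arrays 1 to 4. IIKO array 3 was highest and the groups overlapped, with a difference of 0.13 ± 0.071 (SE; limma adjusted p = 0.365). Dnajb1, a heat-inducible HSP40 protein, was at 9.65, 9.78, 9.86 and 9.58 on IIKO arrays 1 to 4, against 9.72, 9.61, 9.57 and 9.58 on WT arrays 1 to 4. WT array 1 was above IIKO arrays 1 and 4, and the difference was 0.095 ± 0.072 (adjusted p = 0.505). Without IIKO array 3 Dnaja1 was at 0.076 and Dnajb1 at 0.048.

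Hspa8, the constitutive HSP70 of the cytosol, was at 12.65, 12.67, 12.61 and 12.56 on IIKO arrays 1 to 4, against 12.59, 12.60, 12.55 and 12.51 on WT arrays 1 to 4. WT arrays 1 and 2 were above IIKO array 4, and the difference was 0.060 ± 0.052 (SE; limma adjusted p = 0.558). Its other 2 probe sets differed by 0.097 and 0.078. Hspa4, an HSP110-type exchange factor, differed by 0.028, Hsp90aa1, the inducible cytosolic HSP90, by -0.0089, and the chaperonin pair Hspd1 and Hspe1 by -0.013 and -0.00053. The last 3 turned positive with arrays centred on their medians (Hsp90aa1 0.041, Hspd1 0.037, Hspe1 0.050).

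Of the 36, 6 genes had more than 1 probe set with their symbol, and Hspa8, Hspd1, Hspe1, Hsp90aa1 and Dnaja1 are known to have near-identical copies that a probe set could also read. Probe sets disagreed in sign for 3 of them. The second probe set of Dnaja1 differed by -0.053, against 0.13 for the kept one. Those of Hsp90aa1 differed by 0.025 and 0.15, against -0.0089, and that of Hspd1 by 0.0093, against -0.013. For Hspe1 the second probe set was at -0.16 ± 0.088 (SE), against -0.00053. By number, the kept sets of Dnaja1, Hspa8, Hspd1 and Hspe1 stand among probe sets of genes on other chromosomes. Whether these kept sets read the named gene or a copy was not tested. The values and signs given above for these genes are those of the kept sets.

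By promoter, the 8 genes with an ERSE had differences from -0.11 (Syvn1) to 0.14 (Pdia6), 5 above 0 and 3 below, with a median of 0.040. The other 22 genes with a promoter entry had 17 above 0 and 5 below, with a median of 0.088. Dnajb9, Eif2ak3 and Ppp1r15a are among these 22 and Dnajc3 among the 8. Herpud1 and Dnajb11, the genes with an ERSE-II, differed by -0.082 and 0.0029.

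The arrays of a group were not alike in these genes. The mean deviation of the ER chaperones and folding enzymes from their own means was 0.076, 0.117, 0.0861 and -0.0859 on IIKO arrays 1 to 4, against 0.0606, 0.0033, -0.0817 and -0.176 on WT arrays 1 to 4. IIKO array 4 thus lay with the low WT arrays and WT array 1 with the high IIKO arrays. The sensors and effectors stood at 0.0409, 0.112, 0.103 and 0.0252 on the IIKO arrays, against -0.0704, -0.0289, -0.152 and -0.0301 on the WT arrays, without overlap. WT array 4 held the lowest value of 16 of the 36 genes and WT array 3 that of 10, while IIKO array 2 held the highest of 11 and IIKO array 3 that of 10. The mean of the 9969 brighter genes was also lowest on WT array 4 (-0.0379) and highest on IIKO array 2 (0.0290), and its part in these values was not tested. Without WT array 4 the median difference of the ER folding genes was 0.039, and without IIKO array 4 it was 0.15, against 0.082 with all arrays.

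**Figure D4:**
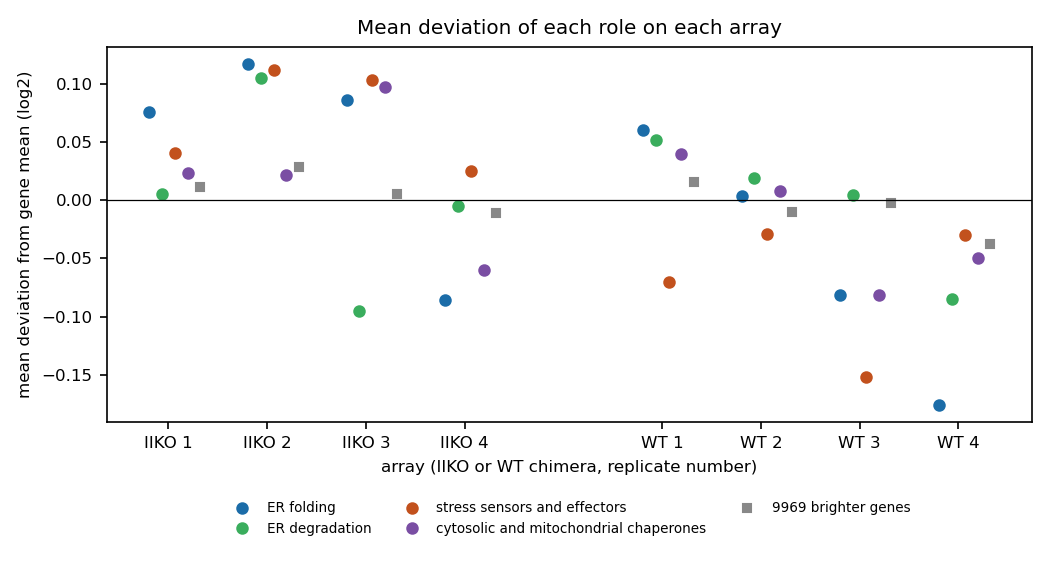
Mean deviation (log2) of the genes of each role from their own means over 8 arrays, on each IIKO and each WT array, with the 9969 brighter genes as grey squares. ER folding genes are lowest on WT array 4 (-0.176) and IIKO array 4 (-0.0859), and the sensors and effectors are above 0 on every IIKO array and below 0 on every WT array.

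Treg identity genes checked the label. Foxp3 was at 10.68 ± 0.12 in IIKO and 10.63 ± 0.04 in WT chimera Tregs (SD, n = 4 arrays each). Of 10 measured Treg and T cell markers 0 passed limma's adjusted test. Of these 10, 6 differences were above 0, and 2 genes were higher at an unadjusted limma p under 0.05. They were Il2ra (0.17) and Ctla4 (0.12). In both, as in Ikzf2 (0.046), every IIKO array lay above every WT array. By these rules 5.27% of all genes were higher at an unadjusted p and 2.83% had every IIKO array above, against 10.7% and 6.56% of the 4985 brightest. Cd4 differed by 0.13 and Cd3e by -0.029. Plasma cells, which carry a strong UPR, had a marker mean of 6.96 to 7.05 on IIKO arrays and 6.89 to 7.02 on WT arrays over 10 markers, 0 of which passed. Of the 10, Jchain (mean level 5.01), Eaf2 (5.79) and Tnfrsf17 (5.97) lay below the lower quartile of all genes, 6.04, and 7 lay above it, from Sdc1 at 6.17 to Prdm1 at 10.14. The 2 brightest of that list, Prdm1 and Irf4, are also Treg genes and differed by 0.24 and 0.26 (limma adjusted p = 0.265 and 0.160). At an unadjusted limma p under 0.05 these 2 were higher and 1 gene, Fkbp11 (-0.15), was lower. Only 4 of the 10 plasma cell marker differences were above 0. Over 14 myeloid and dendritic cell markers the mean was 6.75 to 7.13 on IIKO arrays and 6.61 to 6.91 on WT arrays, highest on IIKO array 3 and lowest on WT array 3, and 0 passed. The brightest of that list were Cst3 (0.075) and Tyrobp (0.56). Of its 14 differences 9 were above 0. At an unadjusted limma p under 0.05, 1 gene was higher (Ly86) and 1 lower (Siglech, at -0.19, with every IIKO array below every WT array). Ly86 had the largest difference of the list, at 1.06 ± 0.44 (SE; limma adjusted p = 0.257). It was at 9.20 on IIKO array 3 and 6.42 on WT array 3, its highest and lowest arrays. Ddit3, Ppp1r15a, Xbp1, Atf4, Dnaja1 and Dnajb1 were also highest on IIKO array 3 and lowest on WT array 3. The part of such cells in their values was not tested. B cell markers had means of 6.18 to 6.23 on IIKO arrays and 6.12 to 6.32 on WT arrays, 0 of 9 passed, and the brightest were Cd79b (-0.19) and Cd22 (0.029). NK and CD8 T cell markers had means of 7.13 to 7.29 on IIKO arrays and 7.20 to 7.49 on WT arrays, and 0 of 8 passed. Of the 8, 1 difference was above 0. At an unadjusted limma p under 0.05, 1 gene was higher and 3 were lower. The brightest were Nkg7 (-0.35, limma adjusted p = 0.085) and Gzma (-0.78, adjusted p = 0.218). Every IIKO array of Nkg7 lay below every WT array. In such bulk samples, fewer cells of a type and less RNA per cell cannot be told apart.

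The wider pathway was read from 132 further genes in lists of the same 4 roles, of which 127 were measured. Of these 0 passed the adjusted test (lowest limma adjusted p = 0.154), and 12 (9.45%) had an unadjusted p under 0.05, with 8 differences above 0 and 4 below, against 17.3% of all genes and 16.4% of the 9969 brighter ones. In 5 of the 127 (3.94%) every IIKO array lay above every WT array, Man1b1, Nfe2l2 and Ppid among them. That share was 2.83% of all genes and 4.95% of the brighter. In 4 every IIKO array lay below, Sec61b, Cnpy2 and Slc7a11 among them, against 7.69% of all genes and 4.49% of the brighter. The wider ER folding list had 18 of 31 differences above 0 with a median of 0.031. It was led by Dnajc10, the ER reductase ERdj5 (0.25 ± 0.070, SE, adjusted p = 0.168), the translocon subunit Sec61b (-0.14 ± 0.047, adjusted p = 0.211) and Cnpy2 (-0.13 ± 0.049, adjusted p = 0.234). The wider degradation list had 13 of 22 above 0 with a median of 0.047, led by Man1b1, a mannosidase of glycoprotein quality control (0.30 ± 0.093, SE), Ubxn4 (0.12 ± 0.057) and the lectin Erlec1 (0.15 ± 0.070), with limma adjusted p from 0.189 to 0.294.

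Among wider sensors and effectors 14 of 27 were above 0, with a median of 0.019. Nfe2l2, or NRF2, an oxidative stress factor that PERK can phosphorylate, was at 9.25 ± 0.13 in IIKO and 8.90 ± 0.15 in WT chimera Tregs (SD, n = 4 arrays each; limma adjusted p = 0.154), with every IIKO array above every WT array. Creb3l2, an ER-anchored transcription factor, differed by 0.26 ± 0.086 (SE) and Slc7a11, a cystine transporter induced by ATF4, by -0.16 ± 0.059, at a mean level of 5.03. The wider cytosolic and mitochondrial list had 21 of 47 above 0 and a median of -0.017, with the HSP90 partners Ppid (0.22 ± 0.081) and Chordc1 (0.14 ± 0.061) and the HSP70 partner Bag3 (-0.15 ± 0.079) at its head.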

How the data were processed

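Sorted CD4+ TCRβ+ CD25+ cells were profiled on 8 Affymetrix arrays, 4 of IIKO and 4 of WT chimeras; titles gave the groups. The authors deposited 1 log2 value per probe set and array. Per the submitters' processing notes the tools were RMA and affy (versions not given in the sources used here). Since RMA removes background and fits 1 value to all probes of a set after quantile normalization, single probes could not be examined. Array medians ran from 6.96 to 7.03, and the number of arrays limits precision.

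Of 34760 probe sets, 21640 had 1 symbol in the platform annotation, 1321 several and 11799 none. The set with the highest mean was kept per gene, giving 19937 genes without a filter on dim genes. The test was limma 3.58.1 (R 4.3.3) on IIKO minus WT (6 residual degrees of freedom, two-sided, Benjamini-Hochberg over all genes, threshold 0.05). The fit was tested on simulated arrays. Titles call the 4 samples of a group biological replicates, without saying which animals they came from, so p-values refer to the spread between these samples. Same-numbered arrays were not paired in the main fit. Their deviations from the group means correlated at 0.0449, -0.0147, -0.0679 and 0.220 for numbers 1 to 4. Arrays of different numbers correlated at -0.144 to 0.102, so the value for number 4 was the highest. A fit with a block for replicate number was therefore given beside the main one.

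The listed genes, the wider lists and the tests were chosen with earlier results of these data known. Given with the value of every array are genes with an unadjusted p under 0.05, the 3 with the smallest p of each role, and Hspa5, Xbp1, Atf4, Ddit3, Hsp90b1 and Hspa8. Of the wider lists the 3 with the smallest p are named. Of the Treg markers Foxp3, Il2ra, Cd4 and Cd3e are named, and of each other marker list the 2 brightest genes. Jchain, Eaf2, Tnfrsf17, Sdc1, Fkbp11, Ly86, Siglech, Ctla4 and Ikzf2 were named after their values were seen. Listed names that had changed were matched through RefSeq synonyms (GRCm38.p6). Plots used matplotlib 3.10.9 under Python 3.11.15. Also run were a stricter threshold (0.01), a block for replicate number, a second quantile normalization, arrays centred on their medians, a fit on the 9969 brighter genes, limma's trend and robust options, weighted arrays, averaged probe sets, and fits without 1 array.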

Additional observations from a re-analysis of the deposited data

Results flagged for a closer look

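In 5 of 82 groups of 4 arrays examined (the 36 genes, the 4 role means and the mean of the 36, each in IIKO and in WT chimera Tregs), 1 array stood apart from the other 3 by Dixon's criterion. Chance alone flags about 1 in 20 such groups, so 5 of 82 is near that rate. Dnajb9 was at 9.66 on IIKO array 4, against 9.92 to 9.97 on the other IIKO arrays. Edem1 was at 10.43 on IIKO array 2, against 10.12 to 10.15. Ddit3 was at 8.46 on WT array 3, against 8.93 to 9.00 on the other WT arrays. Derl1 was at 9.75 on WT array 4, against 9.93 to 9.95, and Hspe1 at 12.15 on WT array 4, against 12.08 to 12.09.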

How the results depend on the processing

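The count of 0 genes past the adjusted p held for the 36 listed and the 127 wider genes at a threshold of 0.01, with the replicate block, after a further quantile normalization, with arrays centred on their medians, among the brighter genes, with trend and robust variance, with array weights, with probe sets averaged, and without any 1 array. The lowest adjusted p of the 36 ran from 0.118 to 0.172 in these fits on 8 arrays. With the replicate block it was 0.160. At an unadjusted p, 5 of the 36 passed with the block, which lost Ppp1r15a and gained Hyou1 and Pdia3, 3 after quantile normalization, 6 with trend and robust variance and 11 with arrays centred, which moved the median of all genes to 0.012. Without 1 array the count ran from 2 to 10. The share of all genes called was not taken in these alternative fits. Without 1 array, median differences ran from 0.051 to 0.094 for the 36, 0.039 to 0.15 for ER folding, -0.033 to 0.046 for ER degradation, 0.10 to 0.16 for the sensors and 0.0036 to 0.070 for the cytosolic and mitochondrial genes. Signs turned after quantile normalization for Dnajb11 (-0.024), Creld2 (-0.049) and Trib3 (0.0069). With arrays centred they turned for Canx (0.026), Calr (0.032), Derl1 (0.033), Trib3 (0.028), Hspd1 (0.037), Hsp90aa1 (0.041) and Hspe1 (0.050), and with probe sets averaged for Hsp90aa1 (0.057). Without 1 array, 24 of the 36 kept their sign each time. The other 12 ran from -0.055 to 0.0034 (Canx), -0.073 to 0.045 (Calr), -0.046 to 0.077 (Dnajb11), -0.087 to 0.087 (Creld2), -0.00084 to 0.15 (Sel1l), -0.0013 to 0.12 (Edem1), -0.065 to 0.018 (Derl1), -0.049 to 0.0075 (Trib3), -0.00074 to 0.073 (Hspa4), -0.051 to 0.022 (Hspd1), -0.043 to 0.021 (Hsp90aa1) and -0.046 to 0.032 (Hspe1). Centring raises every difference by the same amount, so small negative differences turned by construction. The cause of the other turns was not tested.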

Other observations

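Chromosome 17, which carries the MHC, holds 12 measured genes of the wider lists, and of the 36 listed genes 0 lie on it. In IIKO chimera Tregs 5 of the 12 had the higher and 7 the lower mean. The mean was higher for 37.1% of all genes and 53.6% of the 9969 brighter ones. Of the 12, 0 passed limma's adjusted test (lowest adjusted p = 0.239, for Nfya, a subunit of the NF-Y factor that binds the CCAAT letters of the ERSE, at 0.18). Atf6b, the second ATF6 gene, differed by -0.18 ± 0.093 (SE; adjusted p = 0.336). The stress-induced HSP70 gene Hspa1a differed by 0.082 and its neighbour Hspa1l by -0.023. These genes were named after their values were seen.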
